A study of Mus musculus with 24 samples.

Results

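Skeletal muscle of Nur77 knockout mice was compared with wild-type skeletal muscle on 4 arrays, chosen by their titles from the 24 arrays of a series on 6 organs. Each array held RNA of the mutant muscle in 1 dye and RNA of wild-type muscle in the other. Per the design text, the mutant RNA came from a pool of 7 animals (Nur77-/-) and the reference RNA from as many wild-type ones (Nur77+/+). The labelling protocol speaks of 6 control animals, and which number is right could not be settled. The mutant pool carried Cy5 on replicates 1 and 2 and Cy3 on replicates 3 and 4, and 20 µg of total RNA was labelled. Age, sex, strain, the muscle that was taken and the part of the gene that was disrupted are not stated in the labels. Since animals were pooled, the 4 arrays repeat 1 comparison. Every p-value below measures how far the pair of pools differed relative to hybridisation error. Unless said otherwise, that error was estimated for each row over the arrays of all 6 organs, which also shared 1 dye term. The spread between animals was not measured.

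Nur77, encoded by Nr4a1, is an orphan nuclear receptor and an immediate early gene. In muscle it is induced by exercise and by adrenergic stimulation, and it is known for activating genes of glucose uptake, glycolysis and glycogen handling. It binds DNA as a monomer at the NBRE (AAAGGTCA), as a dimer at a related element, or together with the retinoid X receptors.

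All values are log2 ratios, and a positive value means more RNA in the mutant pool. This direction is likely but not stated with the deposited values. Of 9834 genes with a symbol on the array, 7691 had values on at least 3 of the 4 muscle arrays in both dye orientations and were tested, beside 4283 probes without a symbol. The table holds ratios only, with no level per channel, so that the labelled tissue could not be checked through the level of its markers. In RNA of a whole tissue, fewer cells of a type and less RNA per cell cannot be told apart.

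The muscle arrays differed in quality. They held 15580, 15135, 16355 and 13670 values on replicates 1 to 4, with medians of -0.435, -0.777, -0.008 and 0.672 before centring. Across rows (genes, or single probes without a symbol), the arrays of like dye correlated at a Spearman rho of 0.38 (replicates 1 and 2) and 0.11 (3 and 4). The arrays of opposite dye correlated at 0.082 (1 and 3), 0.050 (2 and 3), -0.079 (1 and 4) and -0.14 (2 and 4). The model gave them weights of 0.712, 0.24, 0.478 and 0.0904, so replicate 4 counted least of all 24 arrays and replicate 1 most of the 4. Heart replicate 2 carries skeletal muscle as the label of its wild-type channel. It was 1 of the 24 arrays of the shared model, and the muscle calls were not refitted without this array. Its rho with the 4 muscle arrays was 0.22, 0.24, -0.02 and -0.10. Such values were not particular to it. Brown adipose tissue replicate 2, of the same dye orientation, had 0.18, 0.20, -0.01 and -0.13.

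In the mutant muscle more genes were called higher than lower. If the ratios run the other way, each count of higher genes below is one of lower genes, and the reverse. At a limma adjusted p under 0.05, 270 of 11974 rows passed (2.25%), 255 higher (2.13%) and 15 lower (0.125%). Of the genes with a symbol, 146 of 7691 passed (1.9%), 135 higher (1.76%) and 11 lower (0.143%). Over all rows the median ratio was -0.015 and 5901 lay above 0. The 1st and 99th percentiles of the fitted ratios were -2.53 and 2.34, so the ratios themselves did not lean upward as the calls did. Of the 146 genes, 113 had 1 sign on every array that measured them. Among the 119 of them with all 4 values, 91 had 1 sign, against 867 of the 5247 genes measured on all 4 arrays (505 above 0 and 362 below). Since the calls were made from these same values, this share is a description of the called genes. Of the 135 higher genes, none was below 0 on replicate 1, 3 were on replicate 2, 3 on replicate 3 and 22 of the 124 measured on replicate 4. The count rests on how the spread is modelled. With 1 spread for the 4 arrays of each organ in place of 1 per array, 21 rows passed (0.175%), all higher, and with a dye term for each organ 23 passed, again all higher. Without weights 656 passed, 491 higher and 165 lower, and with the 4 muscle arrays fitted alone none passed in limma, with 986 rows at an unadjusted p under 0.05. Single arrays moved the count as well. Without replicate 1 it was 1363 of 8423 rows, 905 higher and 458 lower. Without replicate 3 it was 2028 of 8238 rows, 1181 higher and 847 lower. The part of the calls that was higher fell to 66.4% and 58.2% in these fits.

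**Figure D1:**
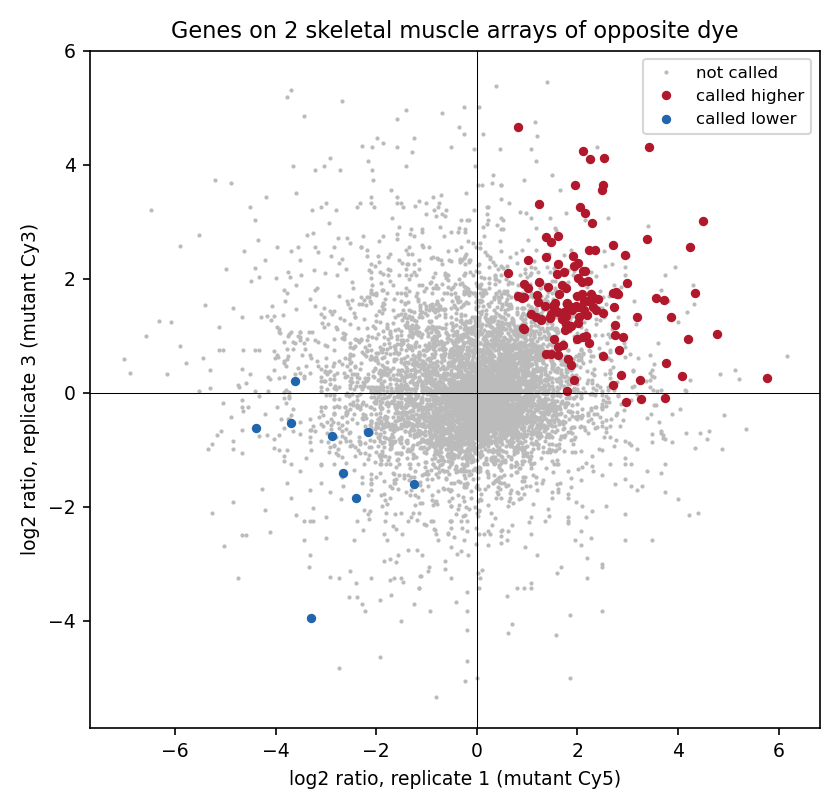
Log2 ratio of each gene on replicate 1 (mutant in Cy5, horizontal axis) and replicate 3 (mutant in Cy3, vertical axis), the muscle arrays with the largest weights; each point is 1 gene measured on both. Most of the 132 genes called higher lie to the upper right, the 9 called lower to the left, and the 6773 others form a cloud with little slope (rho 0.082 over all rows).

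The calls were not spread evenly over the array's probe numbers. What these numbers stand for is not stated. In 21 blocks of up to 1000 consecutive numbers, the share of tested probes whose row was called higher ran from 0.356% (probes 13001 to 14000) to 4.47% (19001 to 20000). The block medians ran from -0.57 to 0.64 on replicate 2 and from -0.65 to 0.49 on replicate 4. When each array was centred within the blocks, an alternative chosen after seeing the data, 221 rows passed, 211 higher and 10 lower, and 211 of the 221 were among the 270. Of 46 named genes 11 no longer passed with this centring, namely Camk2a, Ces1a, Ccdc124, Denn2b, Bid, Slc4a1, Mrps25, Ddx52, Xpo5, Pdlim1 and Ttn.

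Nr4a1, the targeted gene, had log2 ratios of -2.15 on replicate 1, -1.40 on replicate 2 and -0.70 on replicate 3, with no value on replicate 4. All 3 lay below 0, with both dyes. Nr4a1 fell by 1.52 ± 0.35 (SE), a level 2.86-fold lower (limma, adjusted p = 0.0246). It did not pass with 1 spread per organ (adjusted p = 0.393), a dye term per organ (0.744), the arrays scaled (0.0629), a replicate block (0.0624), muscle fitted alone (0.694) or the separate mode of very large values kept. It passed in 6 of the 12 alternatives in which it could be tested. Where the probe lies relative to the disrupted part is not given, and a probe outside that part would check nothing.

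The signs of the relatives Nr4a2 and Nr4a3 changed with the dye. Nr4a2 stood at -2.84 on replicate 1 and at 1.43 and 1.71 on replicates 3 and 4. Nr4a3 stood at -1.59 and -2.91 on the arrays with the mutant in Cy5 and at 4.80 and 1.44 on those with it in Cy3. For both genes the 2 dye orientations gave opposite signs, and the fitted ratios of -0.77 ± 0.66 and 0.93 ± 1.07 did not pass (limma, adjusted p = 0.82 and 0.888). Of the retinoid X receptors, Rxra had a ratio of 0.05 and Rxrg of -1.14, and neither passed.

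A motif search was made because the data concern a receptor with a known element. In the RefSeq promoter table (GRCm38.p6), 107 of the genes called higher and 10 of those called lower had an entry. The letters AAAGGTCA, searched on both strands in the 250 bases before the start, were found in 2 of the 107 (1.87%), in none of the 10, in 68 of the 6241 tested genes with an entry (1.09%) and in 419 of all 27025 genes (1.55%). The 2 promoters are shown 5′ to 3′ on the gene's strand. The 8 letters in capitals are the motif as it reads from the opposite strand, with 20 bases on each side.
Cenpb: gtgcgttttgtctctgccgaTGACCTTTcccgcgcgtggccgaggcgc
Jph2: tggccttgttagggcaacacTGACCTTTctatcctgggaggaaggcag
The first window lies at chr2:131180186-131180233 on the minus strand, with the motif starting 146 bases before the start of Cenpb, a centromere-binding protein outside the rule for named genes (log2 ratio 1.25, adjusted p = 0.0217). The second lies at chr2:163398022-163398069 on the minus strand, 76 bases before the start of Jph2, which ties the transverse tubule to the sarcoplasmic reticulum. A match is a description of the sequence and says nothing of binding.

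Of the lists on fuel use, most had 1 call or none, against 1.9% of all genes called and 1.76% called higher. Pdk2, the kinase that inactivates pyruvate dehydrogenase, had ratios of 1.78, 2.02 and 1.84 on replicates 1 to 3 and 0.24 on replicate 4. The first 3 arrays agreed closely, and replicate 4 lay nearer to 0. Pdk2 rose by 1.75 ± 0.27 (SE, 4 arrays), 3.36-fold (limma, adjusted p = 0.00136). It was the only call among 23 tested genes of pyruvate dehydrogenase and the citric acid cycle, whose median was -0.21. The related kinase Pdk3 had a ratio of -2.20 and citrate synthase (Cs) of -1.68, and neither passed.

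Of 17 tested genes of mitochondrial fatty acid oxidation 2 rose and none fell, with a list median of 0.17, against 1.76% of all genes called higher. Acadvl, which starts the oxidation of very long chains, had ratios of 1.73, 2.10, 1.34 and 0.12 and rose by 1.57 ± 0.29 (limma, adjusted p = 0.00378). Hadha, a subunit of the trifunctional protein that carries out the next steps, had ratios of 1.71, 1.89, 1.36 and -0.30 and rose by 1.51 ± 0.29 (adjusted p = 0.00556). Both genes showed the same order of arrays, with replicate 2 highest and replicate 4 at or below 0.12. The other members lay between -1.05 (Eci2) and 0.66 (Etfb), and the carnitine transferase Crat had a ratio of 0.63.

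Prkaa2, the catalytic alpha 2 subunit of AMP-activated kinase in muscle, had ratios of 2.98, 3.14, 1.92 and 0.73. All 4 were above 0, and those with the mutant in Cy5 were higher than those with it in Cy3. Prkaa2 rose by 2.48 ± 0.34, 5.6-fold (limma, adjusted p = 0.000891). It was the only call among 27 genes of fatty acid uptake, storage and uncoupling (median 0.14) and the only one among 25 genes of insulin, mTOR and AMPK signalling (median -0.02). The regulatory subunit Prkag3, specific to glycolytic fibres, had a ratio of -0.92 and did not pass.

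Genes of glucose use are those for which Nur77 is best known in muscle. Of 21 tested genes of glucose uptake, glycolysis and glycogen none passed in limma, with 2 higher and 1 lower at an unadjusted p under 0.05, and the list median was -0.04. With 1.9% of all genes called, no call among 21 is near the background. Slc2a4, the insulin-responsive glucose transporter, had no value on replicate 1 and stood at 3.26, 0.53 and -1.19 on the others. These values spanned 0, and the fitted ratio of 1.28 ± 0.93 did not pass (adjusted p = 0.73). Hexokinase Hk1 was at 1.14, the phosphofructokinase Pfkp at -1.22 and glycogen synthase Gys1 at -1.05 (adjusted p from 0.21 to 0.81).

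The respiratory chain had no call, which is near the background with 1.9% of all genes called. Of 28 tested complex I subunits none passed in limma (1 higher and 1 lower at an unadjusted p under 0.05, median -0.34). Of 19 genes of complexes III and IV and cytochrome c none passed (none higher and 2 lower unadjusted, median -0.30). Of 13 ATP synthase genes none passed (1 higher and 3 lower unadjusted), and their median was -0.56. The ATP synthase median was below 0 on every array, at -0.42, -0.28, -0.76 and -1.17, and 10 of the 13 genes had a fitted ratio below 0. Atp5l, a membrane subunit, stood at -0.89, -0.32, -1.51 and -2.10 (fitted -1.10, adjusted p = 0.071). The median of complexes III and IV and cytochrome c was also below 0 on every array, at -0.17, -0.01, -0.66 and -1.57. The complex I median was -0.11, 0.26, -0.33 and -1.30, and in each of these lists replicate 4 was lowest.

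Among contractile and calcium-handling genes, giant filament proteins, a myosin binding protein and a junction protein were higher. Of 21 genes of titin, nebulin, the Z-disc and the M-band, 2 rose and 1 fell, with a median of 0.28. The sign of the list median followed the dye, at 0.41 and 0.30 with the mutant in Cy5 and -0.13 and -0.80 in Cy3. Of all genes, 1.76% were called higher and 0.143% lower. Neb, the thin filament ruler nebulin, had ratios of 2.09, 3.51, 1.73 and 1.27 and rose by 2.16 ± 0.50 (limma, adjusted p = 0.0225). Ttn, the giant elastic filament titin, had ratios of 0.90, 2.63, 1.67 and 1.34 and rose by 1.45 ± 0.37 (adjusted p = 0.0416). Both were above 0 on all 4 arrays, but their probes disagreed. The 5 Neb probes had means between -0.15 and 3.31, and the 6 Ttn probes between -0.51 and 4.78. Pdlim1, a Z-disc adaptor, fell by 1.68 ± 0.43 (adjusted p = 0.043), with 1.36 on replicate 4 against -2.41, -0.43 and -1.85 on the others. The titin cap Tcap stood at 2.16 (2.27, 2.61, 2.12 and 0.30 on the arrays) and did not pass (adjusted p = 0.37). Its 2 probes had means of 0.82 and 2.83, and those of Pdlim1 had -1.40 and -0.26.

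Mybpc1, the myosin binding protein C of slow fibres, had ratios of 3.56, 2.45, 1.66 and 2.19 and rose by 2.64 ± 0.61 (limma, adjusted p = 0.0226), 1 of 13 genes of the slow sarcomere list (median 0.34). Its 3 probes had means of 0.53, 3.53 and 4.25. Of the slow sarcomere genes not called, Tpm3 had the largest ratio in size, -2.10 ± 0.89 (limma, adjusted p = 0.369). It stood at -1.25, -1.36 and -3.72 on replicates 1 to 3, where replicate 1 was read by a different probe than replicates 2 and 3. Of 14 fast sarcomere genes none passed (2 higher and none lower at an unadjusted p under 0.05), with a median of 0.35. That median was 0.56 and 0.79 with the mutant in Cy5 and -0.13 and -1.06 with it in Cy3, so its sign followed the dye. Creatine kinase (Ckm) led the list at 1.58 and did not pass (adjusted p = 0.15).

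The 18 tested genes of calcium release and excitation had a median of 0.52, and the median was above 0 on every array (0.54, 0.73, 0.50 and 0.38). It was 0.24 without replicate 3 or replicate 4, and 0.32 over genes with all 4 values. Of the 18, 2 rose and none fell, against 1.76% of all genes called higher. Jph2 had ratios of 2.01, 2.23, 2.28 and 0.38. The first 3 arrays lay together, and replicate 4 stood apart. Jph2 rose by 2.02 ± 0.36, 4.05-fold (limma, adjusted p = 0.00361). Camk2a, a calcium-dependent kinase whose gene also encodes a muscle anchoring protein, had 3.64, 4.87 and 2.57 on replicates 1, 2 and 4 and rose by 3.65 ± 0.89 (adjusted p = 0.0399). Ryr1, the calcium release channel, stood at 2.25, 2.66, 1.93 and 0.09 (fitted 2.08 ± 0.57) and missed the threshold (adjusted p = 0.062). The 2 probes of Ryr1 had means of 0.34 and 3.12. The calcium pump Atp2a1 had a ratio of 1.18 and the phosphoprotein Pln of -1.37, and neither passed. Of the members not called, Fkbp1a had the largest ratio in size, -3.32 ± 1.93 (limma, adjusted p = 0.606). It stood at -4.84, -2.47 and -1.92 on replicates 1 to 3, where replicate 1 was read by a different probe than replicates 2 and 3.

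**Figure D2:**
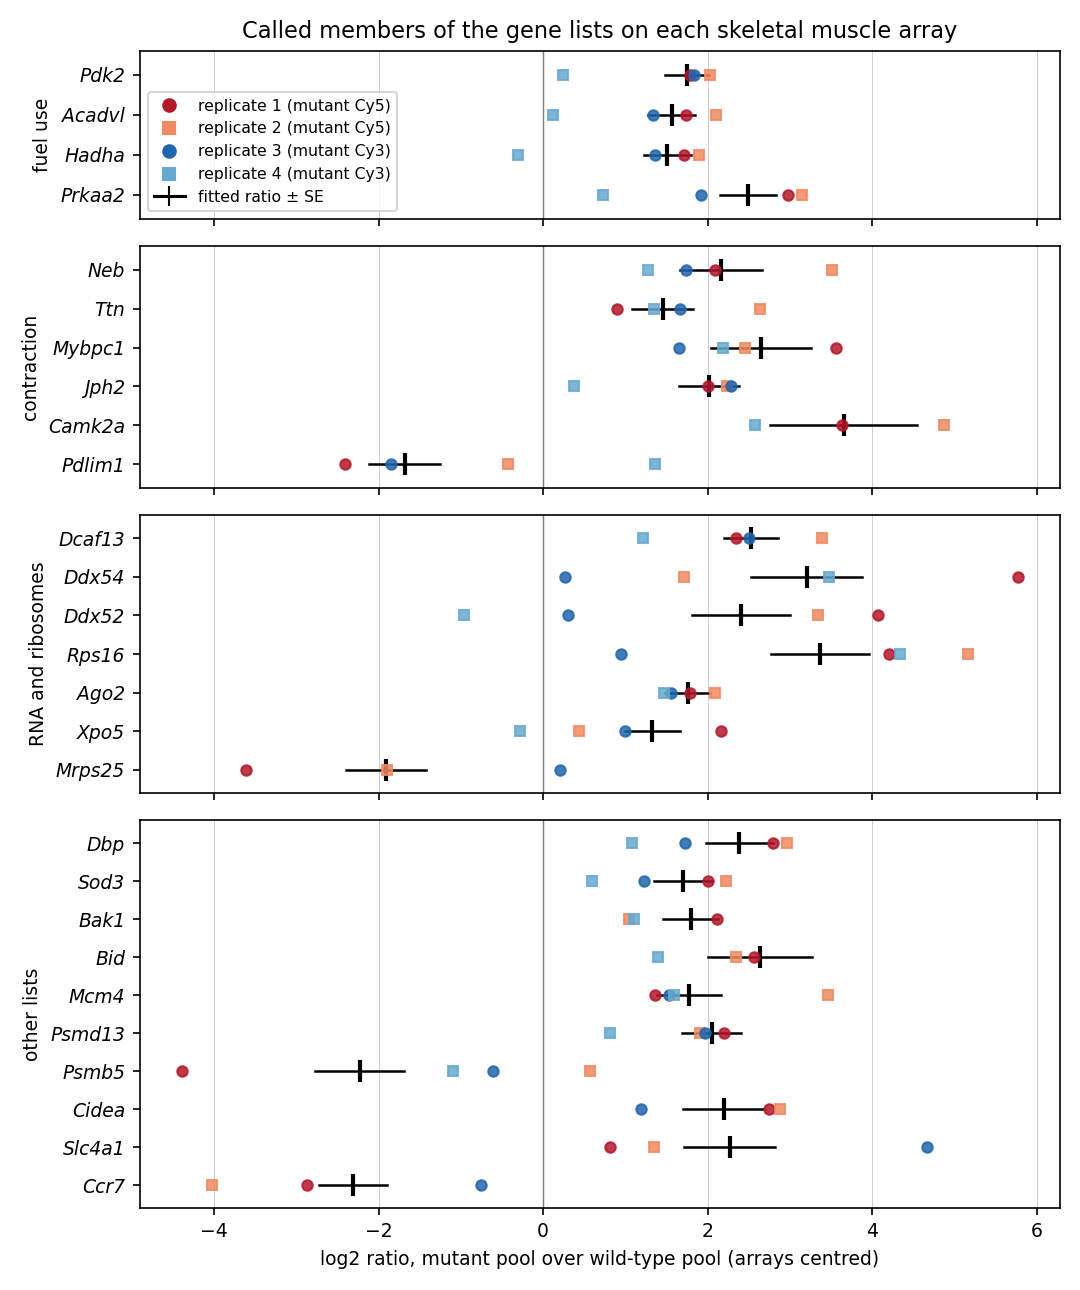
Log2 ratio of each called member of a gene list, except Nr4a1, on the 4 muscle arrays (colours and shapes mark replicate and dye). The black bar is the fitted ratio with its standard error. Pdk2, Acadvl, Hadha and Jph2 are close together on replicates 1 to 3 and near 0 on replicate 4. Psmb5, Ddx52, Pdlim1, Xpo5, Mrps25 and Hadha have arrays on both sides of 0.

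Factors of ribosome formation and RNA silencing were also among the genes called higher. Of 30 tested genes of ribosome formation 3 rose and none fell (median 0.35), against 1.76% of all genes called higher. That median was lower whichever replicate was left out. Dcaf13, a factor of the small subunit's assembly, had ratios of 2.35, 3.39, 2.50 and 1.22. All 4 were well above 0, and the lowest was again replicate 4. Dcaf13 rose by 2.53 ± 0.33, 5.76-fold (limma, adjusted p = 0.000253), and also passed with 1 spread per organ (adjusted p = 0.0314). The RNA helicase Ddx54 had ratios of 5.77, 1.71, 0.26 and 3.48 (fitted 3.20 ± 0.68). Its relative Ddx52 had 4.07, 3.34, 0.30 and -0.96 (2.40 ± 0.60). The helicases thus ranged widely between arrays, and Ddx52 was called although replicate 4 lay below 0.

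Against 1.9% of all genes called, Rps16 was the only call among 52 cytosolic ribosomal protein genes, whose median was -0.11. It had ratios of 4.20, 5.16, 0.95 and 4.34 and rose by 3.36 ± 0.59 (limma, adjusted p = 0.00323), while the highest of the other members was Rpl26 at 0.91, which did not pass. Of 54 mitochondrial ribosomal protein genes (median -0.16) only Mrps25 passed. It fell by 1.90 ± 0.49, with -3.62 and -1.89 where the mutant was in Cy5 and 0.21 on replicate 3, and its 2 probes had means of -3.51 and -0.02. Of 36 genes of translation initiation and elongation none passed in limma (1 higher and 3 lower at an unadjusted p under 0.05).

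Of 20 tested genes of small RNA silencing and RNA decay 2 rose and none fell (median 0.39), against 1.76% of all genes called higher. Ago2, the slicing Argonaute protein, had ratios of 1.79, 2.09, 1.55 and 1.47, a close agreement for these arrays. Ago2 rose by 1.76 ± 0.27, 3.38-fold (limma, adjusted p = 0.00136), and by the same test with 1 spread per organ (adjusted p = 0.0414). Xpo5, the exporter of microRNA precursors, had arrays between -0.28 (replicate 4) and 2.16 (replicate 1) and rose by 1.33 ± 0.34 (adjusted p = 0.0411). Drosha, which cuts the primary transcripts, had a ratio of 1.15 and the silencing partner Tnrc6b of -2.79, and neither passed.

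Cell death genes of the Bcl2 family included both calls of a list of 15 (median 0.18), against 1.76% of all genes called higher. Nur77 protein is known for binding Bcl2 at mitochondria and exposing its killing face. Bak1, a pore-forming effector, had ratios of 2.11, 1.05 and 1.11 on replicates 1, 2 and 4 and rose by 1.79 ± 0.33 (limma, adjusted p = 0.00456). Bid, an activator of such effectors, had 2.56, 2.35 and 1.40 on the same arrays and rose by 2.63 ± 0.63 (adjusted p = 0.0344). Both lacked a value on replicate 3, so their only value with the mutant in Cy3 came from replicate 4. Bcl2 itself stood at -3.66, -1.43, -0.67 and 2.47 and did not pass (adjusted p = 0.68).

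Single members passed in several further lists, against 1.9% of all genes called. Dbp, which carries clock timing to output genes, had ratios of 2.79, 2.96, 1.73 and 1.08 and rose by 2.39 ± 0.41 (limma, adjusted p = 0.00265), 1 of 12 clock genes. No core clock gene passed, and Nr1d1 stood at 1.36 and Bhlhe41 at 1.68. Sod3, the extracellular superoxide dismutase, had 2.01, 2.22, 1.22 and 0.60 and rose by 1.70 ± 0.35 (adjusted p = 0.0119), 1 of 27 antioxidant and metallothionein genes. Mt2, a metallothionein, stood at -1.93 and did not pass.

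Of 29 tested proteasome subunits 1 rose and 1 fell, against 1.9% of all genes called. Psmd13, a lid subunit, had ratios of 2.20, 1.91, 1.96 and 0.81 and rose by 2.05 ± 0.36 (limma, adjusted p = 0.00296). Psmb5, the catalytic subunit with chymotrypsin-like activity, fell by 2.23 ± 0.54 (adjusted p = 0.0332), but its arrays ran from -4.39 to 0.57. The median of the subunits was -0.46. Mcm4, of the replicative helicase, had 1.36, 3.46, 1.53 and 1.59 and rose by 1.78 ± 0.39 (adjusted p = 0.0188), 1 of 34 genes of mitosis and the cell cycle. The mitotic kinesin Kif20b stood at 2.90 and did not pass (adjusted p = 0.064).

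No call was made in the lists of atrophy, ubiquitin and autophagy (24 genes; 3 higher and 2 lower at an unadjusted p under 0.05), heat shock and chaperones (35; 1 and 1) or immediate early genes besides the NR4A family (13; 0 and 2). The same held in limma for collagens and matrix (38; 5 and 0), chromatin remodellers (23; 0 and 2), the dystrophin complex (14; 2 and 0), myogenic factors and satellite cells (14; 3 and 2), the neuromuscular junction (7; 2 and 0), nuclear receptors of muscle metabolism (12; 1 and 0) and interferon and antigen presentation (20; 1 and 2). Among them Chd8, a chromatin remodeller, stood at -3.01 (-4.84, -3.66 and -0.99 on replicates 1 to 3; adjusted p = 0.07). Jag1, a Notch ligand, stood at -1.38 and was below 0 on all 4 arrays (adjusted p = 0.077). Col5a3, a fibrillar collagen, stood at 1.44 (adjusted p = 0.069), and the satellite cell cadherin Cdh15 at 2.44 (adjusted p = 0.28). With 1.9% of all genes called, no call in any single list of these sizes is near the background.

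Markers of other cells in muscle gave at most 1 call per list, against 1.9% of all genes called. Of 9 adipocyte genes Cidea, a lipid droplet protein, had ratios of 2.75, 2.88 and 1.19 on replicates 1 to 3 and rose by 2.19 ± 0.49 (limma, adjusted p = 0.0213). The adipocyte markers Adipoq (0.61) and Fabp4 (-0.42) did not pass. Of 6 erythroid genes Slc4a1, the anion exchanger of red cells, had 0.82, 1.35 and 4.67 and rose by 2.26 ± 0.56 (adjusted p = 0.036), while Hba-a1 stood at -0.39 and Alas2 at -0.76. Of 12 T and B cell genes Ccr7, the chemokine receptor that guides cells to lymph nodes, had -2.87, -4.02 and -0.76 and fell by 2.31 ± 0.41 (adjusted p = 0.00361), while Cd79b (-0.96), Lat (-0.80), Cd22 (-0.64) and Gata3 (2.37, adjusted p = 0.093) did not pass. The median of these 12 genes was -0.32, and 4 of them lay above 0. None passed among 13 endothelial and pericyte genes, 5 Schwann cell and nerve genes (no gene of either at an unadjusted p under 0.05), 14 macrophage and granulocyte genes (1 lower unadjusted) or 19 testis germ cell genes (1 higher unadjusted). The part of these cells in the calls above was not tested.

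**Figure D3:**
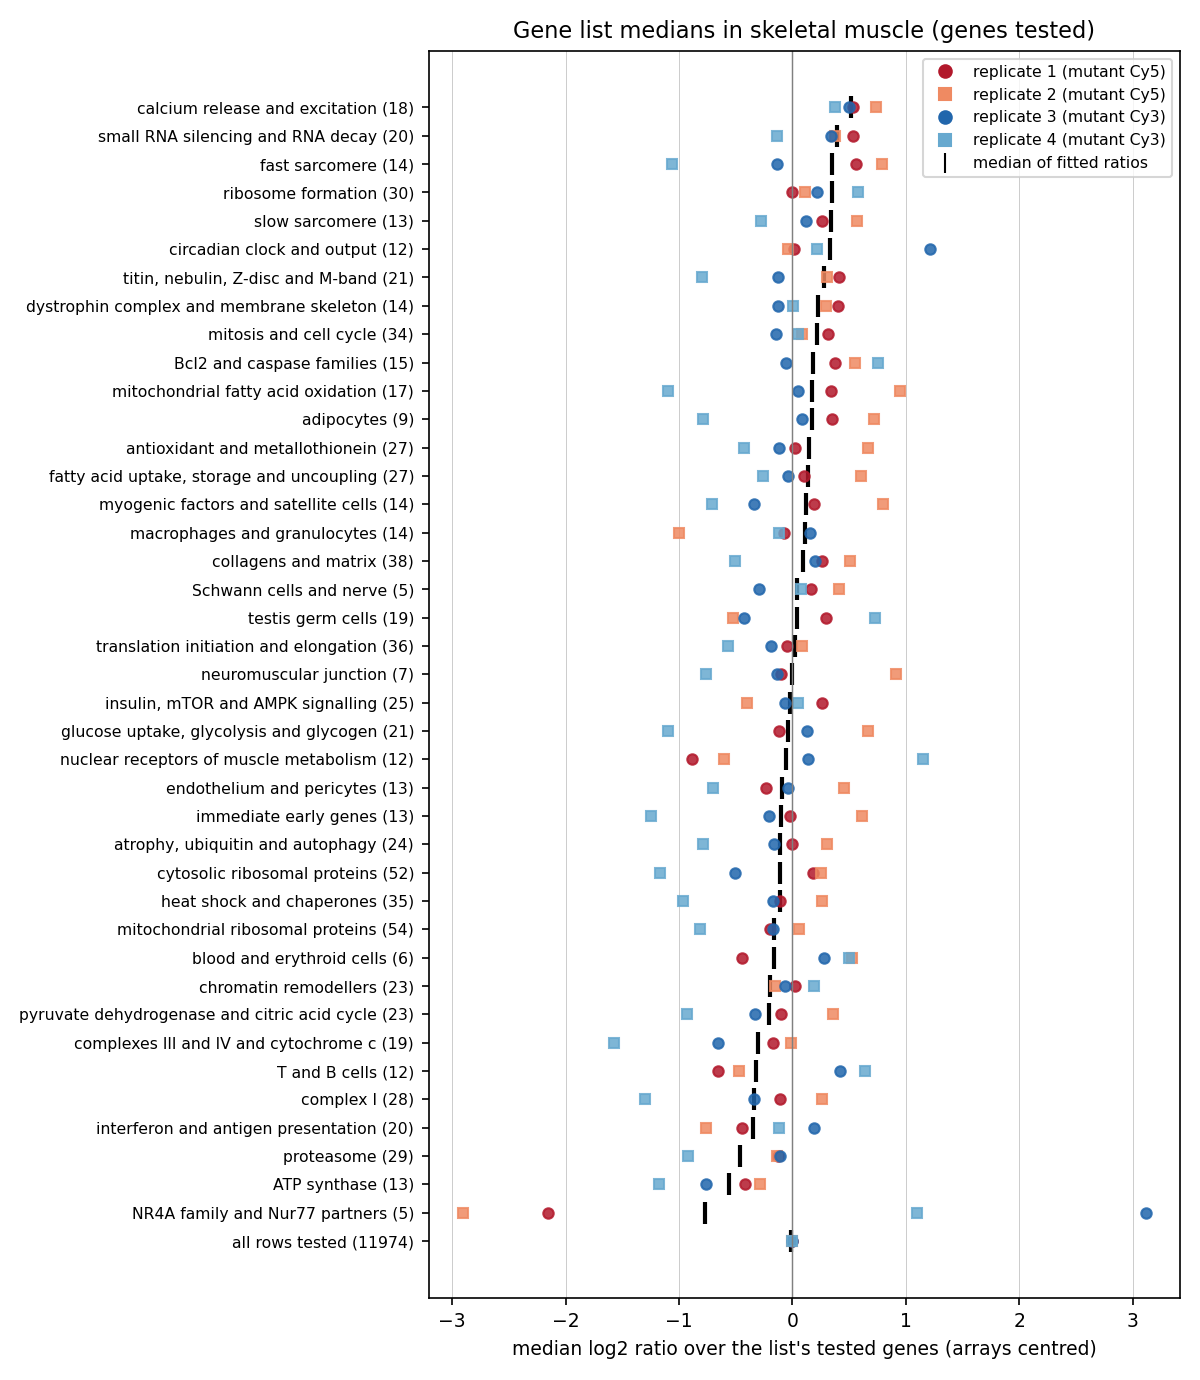
Median log2 ratio of the tested genes of each list (number in brackets) on the 4 muscle arrays, with the median of the fitted ratios as a black bar. Calcium release and excitation lies above 0 on every array. ATP synthase, complexes III and IV with cytochrome c, and the proteasome lie below 0 on every array. Most other lists have arrays on both sides of 0, with replicate 4 (light blue squares) often lowest.

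Genes of mixed function had the highest ratios among those with 1 sign throughout. After Camk2a at 3.65 (12.6-fold) came Cited4, a co-activator that binds CBP and p300, with 3.43, 4.32 and 0.55 on replicates 1, 3 and 4 (fitted 3.59 ± 0.75). Tnfaip2, induced by tumour necrosis factor, had 4.50, 1.34 and 3.02 on replicates 1 to 3 (3.49 ± 0.60), with probe means of 5.01 and 0.89. Cemip, a hyaluronan-degrading protein, had 4.24, 2.39, 2.55 and 1.75. All 4 of its arrays were above 1, and it rose by 3.27 ± 0.39, 9.68-fold (limma, adjusted p = 0.000158). Vegfa, the growth factor of blood vessels, had 2.52, 0.09, 4.12 and 3.07 and rose by 2.65 ± 0.60 (adjusted p = 0.0217), with replicate 2 near 0. The others were Rps16 and Ddx54 (above), the lens crystallin Crybb2 (2.94), the chromatin complex subunit Gatad2b (2.90), Lancl2 (2.68), the ubiquitin ligase Lnx2 (2.68) and Mybpc1 (2.64).

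In the other direction 6 genes passed with 1 sign on every array. Ces1a, a carboxylesterase, had -4.67, -1.28 and -0.53 on replicates 1, 2 and 4 and fell by 3.61 ± 0.84 (limma, adjusted p = 0.0479). Ccdc124, a ribosome-associated protein, had -3.29, -3.93 and -3.96 on replicates 1 to 3. Its 3 values lay close together in both dyes, and it fell by 3.47 ± 0.83 (adjusted p = 0.0443). The others were Ccr7, Denn2b, an activator of Rab proteins (-2.22), Nr4a1 and 2310002L09Rik (-1.47, with -3.38 on replicate 4). Of the 11 lower genes, 5 had arrays on both sides of 0.

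**Figure D4:**
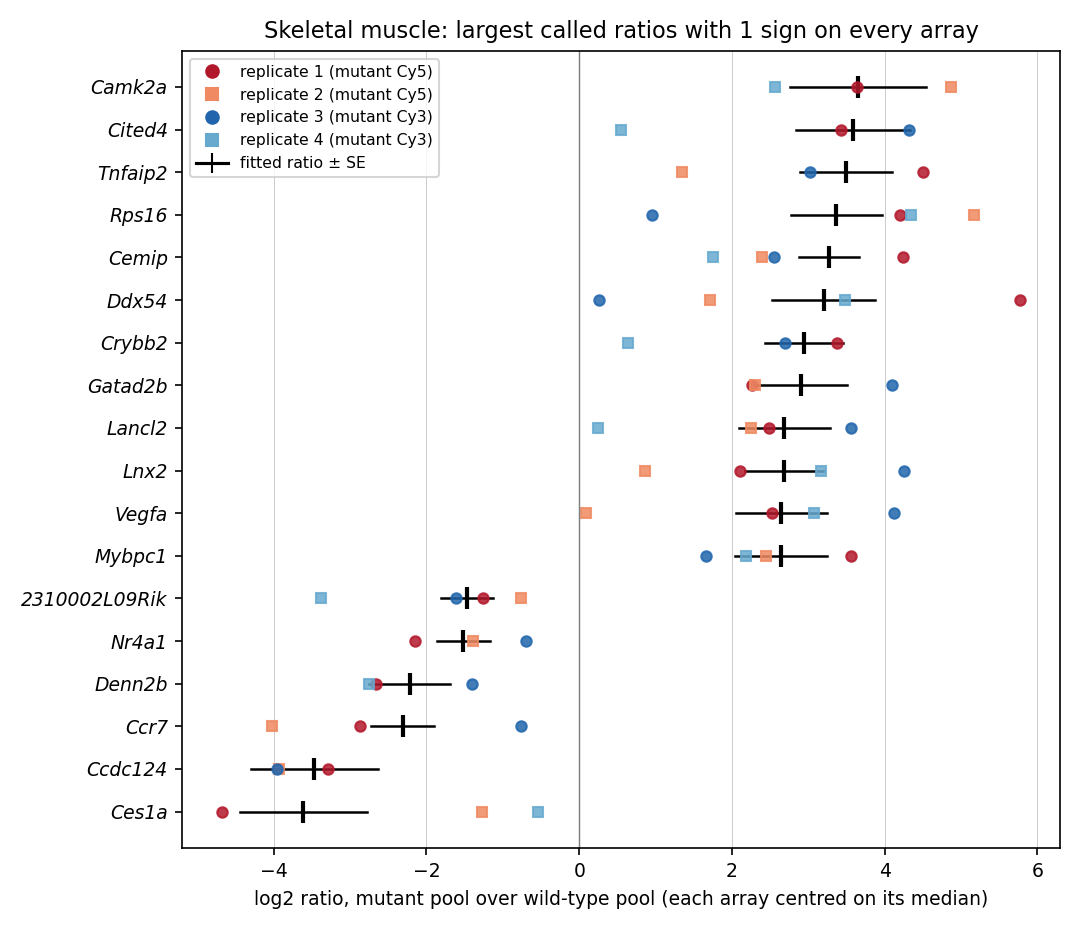
Log2 ratio on each of the 4 muscle arrays for the 12 highest and all 6 lowest called genes with 1 sign on every array; the black bar is the fitted ratio with its standard error. Cemip and Mybpc1 lie above 1 on all 4 arrays, and Ddx54 and Vegfa span from near 0 to above 4.

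Muscle was then set against the mean of the other 5 organs in the same model, to test whether a ratio was larger there than elsewhere. Over 7553 rows testable in all organs 248 passed (3.28%), 237 higher in muscle (3.14%) and 11 lower (0.146%). Of the 146 called genes 140 could be tested and 124 passed with the same sign. The contrast uses the same muscle arrays as the calls, so it adds the other organs only. Without heart replicate 2, 230 of 7222 rows passed. With 1 spread per organ 22 passed, without muscle replicate 1 979 and without muscle replicate 3 1432.

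The 10 genes with the smallest adjusted p in this contrast were all higher in muscle. Cemip had a ratio of 3.27 in muscle, 0.10 in heart, 0.29 in brown adipose tissue, 0.19 in lung, 0.05 in spleen and 0.06 in testis, a difference of 3.14 ± 0.39 (limma, adjusted p = 0.000122). Snx18, a sorting nexin, was at 2.46 in muscle and between -0.12 and 0.26 elsewhere, but its 2 probes had means of -0.85 and 4.88 in muscle. Dcaf13 was at 2.53 in muscle and at most 0.34 elsewhere (spleen), a difference of 2.37 ± 0.32 (adjusted p = 0.000235). The other 7 were Btbd1 (2.13 in muscle), a ubiquitin ligase adaptor, Fam120b (1.88), a co-activator of PPAR gamma, and Snrnp35 (1.97), of the minor spliceosome. They further included Pdk2 (1.75), Blvrb (2.54), a flavin and biliverdin reductase, Ccdc43 (1.75) and Abce1 (2.26), a ribosome recycling factor. Over these 7 genes the other organs ran from -0.47 (Snrnp35, spleen) to 0.78 (Abce1, spleen).

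**Figure D5:**
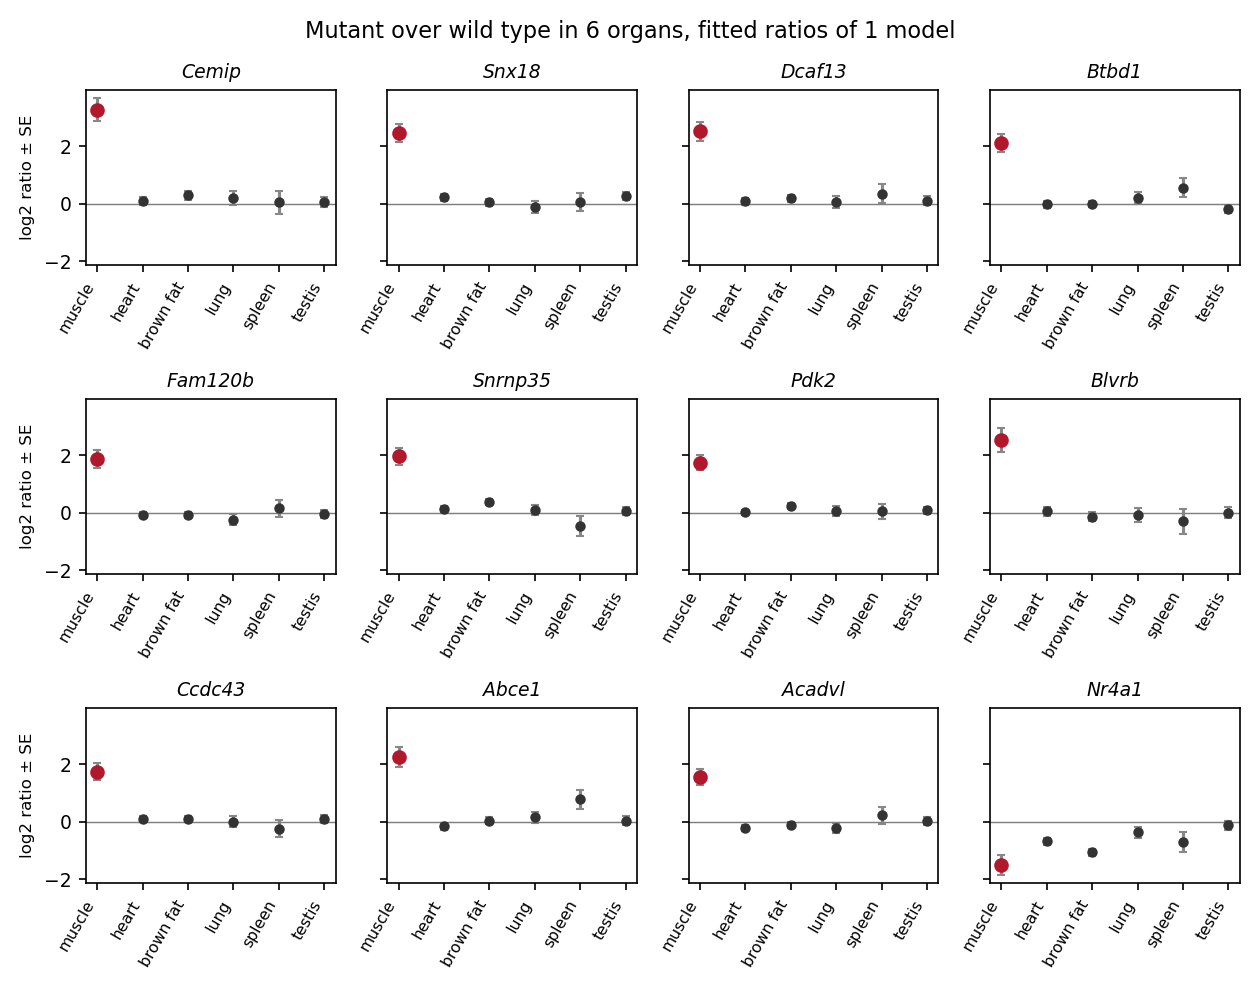
Fitted log2 ratio with its standard error in muscle (red) and 5 other organs for the 10 genes with the smallest adjusted p in muscle minus the other organs, and for Acadvl and Nr4a1. In the first 11 panels muscle lies above 1.5 and the other organs between -0.47 and 0.78, and in the last Nr4a1 lies below 0 in every organ.

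Nr4a1 was not among them. Its ratio was -1.52 in muscle. Brown adipose tissue followed at -1.07, and spleen (-0.71) and heart (-0.69) lay above it. Lung was at -0.37 and testis at -0.13. The ratio of muscle was the lowest, and the difference from the other organs, -0.92 ± 0.34, did not pass (limma, adjusted p = 0.186). Acadvl (1.57 in muscle) was between -0.23 and 0.22 elsewhere and Hadha (1.51) between -0.09 and 0.33, and both passed (adjusted p = 0.00192 and 0.00558). Cidea, at 2.19 in muscle, was at 2.01 in spleen and between -0.49 and 0.09 in the other 4 organs, and passed (adjusted p = 0.04).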

How the data were processed

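For each array the authors deposited a table with 1 log2 ratio for each probe. How it was centred, which way it runs, why cells are empty and which software made it is not given in the sources used here. Log base and direction are therefore inferred from the values and the labels' channels. Values larger than 12 in size, a separate mode, were set to missing (175 to 299 per muscle array). Of 20205 probes 13891 have 1 symbol in the platform annotation, 5 several and 6309 none, and 13855 were found in RefSeq. Probes of 1 symbol were averaged, and other probes stayed as rows of their own. A row was tested with at least 3 of 4 muscle arrays and both dye orientations. Each array was centred on its median. limma 3.58.1 (R 4.3.3) fitted 6 organ coefficients, 1 dye term and a weight per array over 24 arrays. Benjamini-Hochberg adjustment covered all 11974 rows (threshold 0.05). The procedure was also run on data simulated with its own array spreads and 1 dye effect shared by all organs. That run cannot test whether these assumptions hold for the real arrays. The exact sign test on 4 arrays cannot go below a 2-sided p of 0.125, and the number of arrays limits the precision.

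The 4 arrays, the 40 gene lists and the tests were chosen with earlier results of these data known. Named are the NR4A genes, the 12 highest and up to 12 lowest called genes with 1 sign on every array, every called list member with up to 4 further members per list by size of ratio, and the 10 smallest adjusted p of muscle against the other organs. Other names are said to be outside this rule. Standard errors are those of the model.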

Additional observations from a re-analysis of the deposited data

Results flagged for a closer look

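Of 72 groups of 4 muscle arrays looked at, 32 genes and 40 list medians, 4 held an array far from the other 3. For 4 values of equal spread, chance alone gives such a mark in about 1 in 20 groups. These arrays differed in spread and the genes were chosen as called, so that rate need not hold here. On replicate 4 Jph2 stood at 0.38 and Pdk2 at 0.24, below their other arrays. On the same array the median of the proteasome list was -0.92, against -0.11 to -0.13 on the others. Mcm4 stood at 3.46 on replicate 2, above the others.

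For 40 named genes that were also called in muscle, the ratio there differed from the mean of the 5 other organs (limma, contrast within the same model, adjusted over 7553 rows). The log2 difference, muscle minus the other organs, was largest for Cited4 (3.70), Camk2a (3.52), Tnfaip2 (3.20), Ddx54 (3.18), Cemip (3.14), Lancl2 (3.03), Rps16 (2.94), Crybb2 (2.88), Gatad2b (2.76), Mybpc1 (2.74), Vegfa (2.71), Neb (2.64) and Blvrb (2.63). It was smaller for Bid (2.55), Lnx2 (2.44), Dcaf13 (2.37), Snx18 (2.36), Slc4a1 (2.16), Abce1 (2.09), Btbd1 (2.02), Fam120b (1.94), Snrnp35 (1.94), Cidea (1.88), Jph2 (1.88) and Bak1 (1.78). The lowest positive differences were those of Dbp (1.76), Ccdc43 (1.73), Psmd13 (1.67), Pdk2 (1.66), Acadvl (1.63), Mcm4 (1.60), Ago2 (1.60), Sod3 (1.58), Ttn (1.58), Hadha (1.44) and Xpo5 (1.24). Among these 40 genes the differences below 0 were those of Ccr7 (-2.34), Denn2b (-2.25), Psmb5 (-2.12) and 2310002L09Rik (-1.29). List members not called in muscle also passed this contrast in limma. They were Mt2 (-2.37, adjusted p = 0.0483), Gata3 (2.54, adjusted p = 0.0477) and Thrsp (1.25, adjusted p = 0.00967). The part of the muscle arrays' lower quality in these differences was not tested.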

How the results depend on the processing

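The counts in limma moved most with the model of the spread and with single arrays. For muscle, 270 rows passed as reported, 656 with an equal spread for every array, 21 with 1 spread per organ, 23 with a dye term per organ and 0 with muscle alone (986 at an unadjusted p under 0.05). Leaving out 1 replicate gave 257 (without replicate 2) to 2028 (without replicate 3), with 1363 without replicate 1 and 345 without replicate 4. For muscle minus the other organs (248), they gave 471, 22 and 23, the scaled arrays gave 149, and leaving out 1 replicate gave 209 to 1432. Deviations of the arrays from their organ's mean were correlated between muscle and the other organs over 3630 complete rows. Same-numbered arrays, which share the dye orientation, correlated over 0.1 for all 4 of heart (0.101 to 0.215). The same held for brown adipose tissue (0.101 to 0.137), but for only 1 of 12 arrays of the other organs. In 9 of 20 pairs the same number was the best match. Over all 20 pairs the numbers were therefore not taken as pairing, and with a replicate block 192 and 185 rows passed. Uncentred arrays gave 191 rows, 163 higher and 28 lower.

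Nr4a1 kept its sign in the 12 alternatives in which it could be tested (not those with complete rows or without replicate 1, 2 or 3) but did not pass with 1 spread per organ (-1.40), a dye term per organ or muscle alone (-1.24 each), a replicate block (-1.50), scaled arrays (-1.31) or the separate mode kept (-1.64). No named called gene reversed. Of 46, 4 passed with 1 spread per organ, 5 with a dye term per organ, none with muscle alone, and 31 to 42 in the other alternatives over all replicates (31 where 31 could be tested).

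List medians moved by more than the arrays' spread in 32 of 640 cases. The calcium list was at 0.24 uncentred, 0.37 scaled and 0.32 with complete rows, and chromatin remodellers at -0.46 uncentred and 0.14 with complete rows. Uncentred, the dystrophin complex was at -0.053, insulin signalling at -0.30 and mitosis at -0.057. Schwann genes were at -0.41 with equal spread, -0.42 with 1 spread per organ and -0.29 with a dye term per organ or muscle alone. With 1 replicate left out, the ranges of the lists that moved were -0.36 to 0.10 (antioxidant and metallothionein), 0.24 to 0.56 (calcium release and excitation), -0.23 to 0.33 (chromatin remodellers), -0.047 to 0.98 (circadian clock and output), -0.14 to 0.57 (dystrophin complex and membrane skeleton), -0.19 to 0.41 (endothelium and pericytes), -0.56 to 0.84 (fast sarcomere), -0.27 to 0.33 (interferon and antigen presentation), -0.084 to 0.31 (mitosis and cell cycle), -0.55 to 0.21 (myogenic factors and satellite cells), -0.44 to 2.42 (NR4A family and Nur77 partners), -0.11 to 0.22 (ribosome formation), -0.32 to 0.012 (Schwann cells and nerve). Depth cannot be given for ratios, and the cause of these moves was not tested.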

Other observations

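The genes named here passed the same limma test and lie outside the rule for named genes; they were chosen after their values were seen. They stand here as single genes, with no count or test of a group. Micu2, a gate of the mitochondrial calcium uniporter, had log2 ratios of 2.72, 3.62 and 2.59 on replicates 1 to 3 and -0.22 on replicate 4 (fitted 2.60, adjusted p = 0.00369). Maob, a monoamine oxidase of the outer mitochondrial membrane, stood at 1.98, and Mrs2, a mitochondrial magnesium channel, at 1.51. The coat GTPase Sar1a (1.95), the SNARE protein Ykt6 (1.57), the coatomer subunit Copb2 (2.16) and the clathrin adaptor subunit Ap2b1 (1.39) were also higher. Sar1a and Ykt6 were below 0 on replicate 4, and the 2 probes of Copb2 had means of 2.44 and -0.17.

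Among genes of other functions, Tle6, a transcriptional co-repressor relative, had ratios of 1.46, 1.26, 1.30 and 1.44 (fitted 1.38, adjusted p = 0.0137), and Pafah1b2, an acetylhydrolase subunit, had 2.15, 3.19, 3.15 and 2.45 (2.63, adjusted p = 0.0061). Glul, glutamine synthetase, had 2.11, 2.31, 0.98 and 1.80 (1.75, adjusted p = 0.00304), but these values average 2 probes of opposite sign. One probe of Glul was below 0 on all 4 arrays (mean -1.58) and the other above 0 on all 4 (mean 5.18). Atg16l1, an autophagy factor outside the autophagy list used above, had 1.22, 2.40, 1.60 and 1.16 (1.54, adjusted p = 0.0101). Ftl1, the ferritin light chain, was at 1.96, with 0.61 on replicate 1 and 5.72 on replicate 2. Faap100, of the Fanconi anaemia core complex, had the lowest ratio of the called genes (-4.33), with -4.50 and -5.49 on replicates 1 and 2 and 0.23 on replicate 4.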
